A study of Mus musculus with 5 samples.

Results

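Classical monocytes of the bone marrow were compared with common monocyte progenitors (cMoP), the committed progenitor from which monocytes are made. Both populations came from untreated wild-type C57Bl/6 mice, and each was measured on 1 expression array, as were the other 3 populations of the series. The classical monocytes were sorted as lineage-negative cells with CD115 and Ly6C on the surface and without TremL4. The cMoP were sorted as lineage-negative cells with CD115 and CD117 and without CD135. CD115 is the receptor for colony-stimulating factor 1 (Csf1r), CD117 the receptor for stem cell factor (Kit) and CD135 the receptor for Flt3 ligand (Flt3). The gate given for classical monocytes names neither CD117 nor CD135, and the gate given for cMoP does not name Ly6C. The other 3 arrays held monocyte-dendritic cell progenitors (MDP), common dendritic cell progenitors (CDP) and nonclassical monocytes, and their values are given below only where they place a gene. The age and sex of the mice and the number of mice behind an array are not given in the labels. Of the named genes, 9831 reached the floor defined below on the classical monocyte array and 9946 on the cMoP array.

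All genes that reached a floor on either of the 2 arrays were taken, which gave 10305 of the 19938 named genes. The floor was the median of all named genes' log2 values over the 5 arrays, 6.27. Just inside it lay Il21r, whose higher value was 6.27 in cMoP, and just outside lay Plxna1, at 6.20 in classical monocytes and 6.27 in cMoP, which before rounding fell just short of it. Values are log2 array values, and a difference is the classical monocyte value minus the cMoP value, so that 1 unit is 2-fold and a negative sign means lower in classical monocytes. Genes are called higher or lower from 1 log2 unit upwards, in either sense. A fold is written as at least a size where the lower value lay under the floor and was set to it. With 1 array on each side there is no replicate, no test and no error, and counts past the threshold describe these 2 arrays. In bulk arrays, a larger share of cells that make a transcript and more transcript per cell cannot be told apart.

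The cMoP is a dividing cell that builds granule proteins and ribosomes, and its descendants become classical monocytes within the marrow before they leave through CCR2. The mature classical monocyte is a motile phagocyte that carries receptors for microbes, immune complexes and chemokines and that can enter tissue to become a macrophage or dendritic cell. Interferon-stimulated genes are induced by interferons and often hold a GAAA repeat in their promoters, and MYC is known to drive the genes of ribosome assembly and nucleotide synthesis in growing cells.

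The sorting genes followed the gates as far as they were measured. Kit had 5.79 in classical monocytes and 9.37 in cMoP, a difference of -3.58 (at least 8.6-fold lower). Flt3 had 6.74 in classical monocytes and 6.40 in cMoP, where the MDP and CDP arrays had 10.75 and 10.74. Csf1r had 10.90 in classical monocytes and 10.03 in cMoP. Treml4 lay under the floor on both arrays, with 6.18 in classical monocytes and 5.72 in cMoP, while the nonclassical monocyte array had 11.78. The Ly6C genes Ly6c1 and Ly6c2 were not analysed here. Xist had 11.09 in classical monocytes and 10.98 in cMoP, and the Y-linked Kdm5d, Eif2s3y and Uty lay between 2.55 and 4.05 on both.

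Of the 10305 genes, 722 were higher in classical monocytes (7.01%) and 453 were lower (4.4%), so that 11.4% differed 2-fold or more. The shares of 7.01% and 4.4% are those to set beside every list count below. At 4-fold or more, 197 were higher (1.91%) and 57 lower (0.553%). Higher genes thus outnumbered lower ones 1.59 to 1 at 2-fold and 3.46 to 1 at 4-fold. Most genes differed little, as 68.8% lay within 0.5 log2 units and the median difference was -0.01. Genes from the 25th to the 75th percentile lay between -0.30 and 0.27. In 777 genes (7.54%) the 2 arrays held the same value to the last digit. The higher genes had a median value of 8.98 in classical monocytes and 7.26 in cMoP, and the lower genes 7.22 in classical monocytes and 8.71 in cMoP. For 175 of the 722 higher genes the cMoP value lay under the floor, and for 106 of the 453 lower genes the classical monocyte value did.

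**Figure D1:**
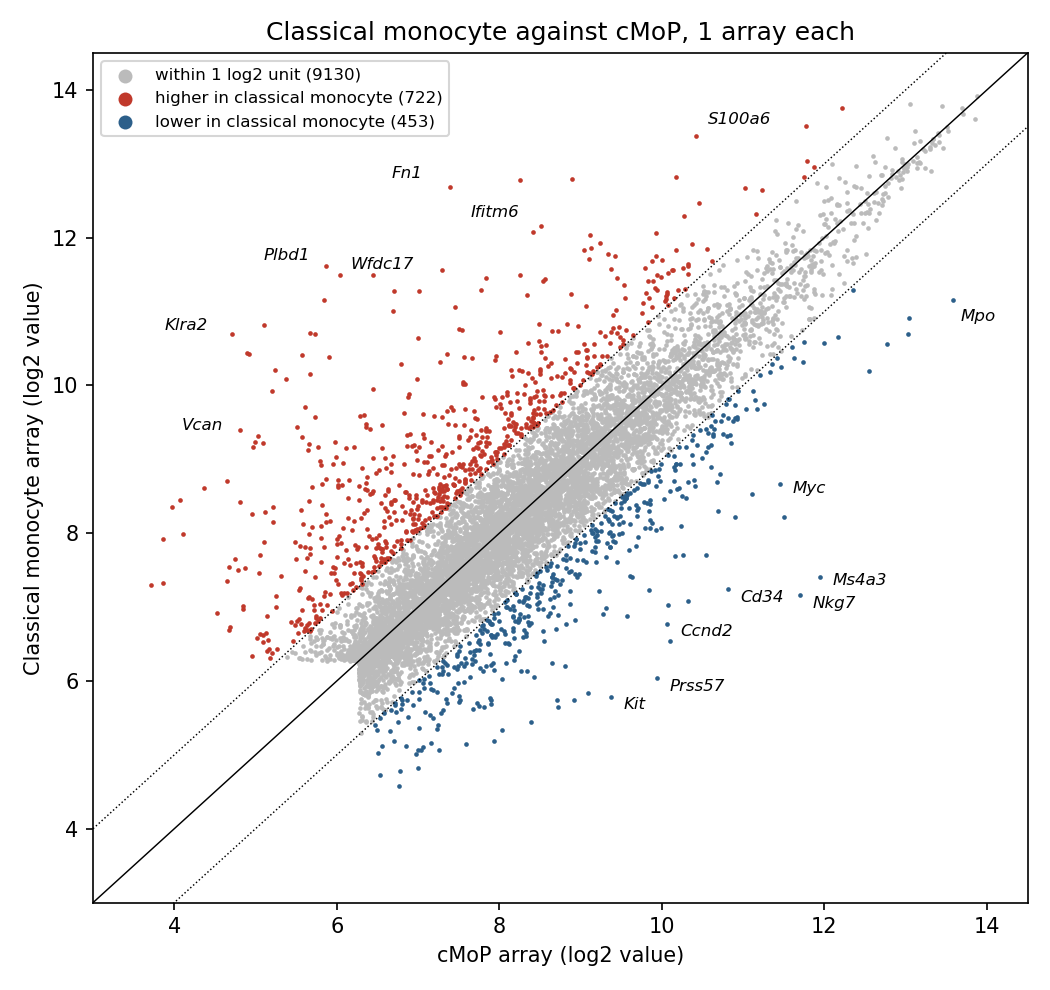
Log2 value of each of the 10305 genes on the classical monocyte array (vertical axis) against the cMoP array (horizontal axis), with 722 higher genes in red, 453 lower genes in blue and the others in grey. The solid line marks equal values and the dotted lines 1 log2 unit. Klra2 and Plbd1 lie farthest above the lines, and Nkg7 and Ms4a3 farthest below.

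The largest differences in favour of classical monocytes were those of surface receptors, matrix and lysosomal proteins and interferon-inducible genes. The 15 genes were ranked after values under the floor were set to it. Plbd1, a phospholipase-like protein of lysosomes and granules, had 11.61 in classical monocytes and 5.87 in cMoP (at least 40.6-fold higher). Fn1, the gene of the matrix protein fibronectin, had 12.69 in classical monocytes and 7.39 in cMoP (39.4-fold). Wfdc17, a small secreted protein with a protease inhibitor fold, had 11.49 in classical monocytes and 6.04 in cMoP (at least 37.4-fold). Plbd1 and Wfdc17 were thus under the floor in cMoP, whereas Fn1 was measured above it on both arrays.

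The inhibitory receptor Lilrb4a had 11.49 in classical monocytes and 6.44 in cMoP (33.2-fold), and its relative Lilra6, an activating receptor, differed by 4.31 (19.8-fold). The C-type lectin receptors Clec4a3 and Clec4a1 had 11.16 and 10.82 in classical monocytes, against 5.84 and 5.11 in cMoP. Klra2, a lectin-like receptor of the Ly49 family, had the largest difference in deposited values, 5.99, with 10.70 in classical monocytes and 4.70 in cMoP (at least 21.5-fold). All of these are cell surface receptors, and some belong to families of near-identical copies whose probes may share signal.

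Tlr13, the receptor for bacterial ribosomal RNA in mice, had 10.72 in classical monocytes and 5.67 in cMoP (at least 21.8-fold). Msr1, the class A scavenger receptor, had 10.44 in classical monocytes and 4.89 in cMoP (at least 18-fold). Ccl6, a chemokine of myeloid cells, had 11.56 in classical monocytes and 7.30 in cMoP (19.2-fold), and Mmp8, the neutrophil collagenase, had 11.28 in classical monocytes and 7.02 in cMoP (19.2-fold). Mmp8 was high on the classical monocyte array alone among the 5, with 7.17 in MDP, 6.75 in CDP and 4.32 in nonclassical monocytes. The other 3 of the 15 were interferon-inducible genes, namely Ifi207 with 11.27 in classical monocytes and 6.71 in cMoP, Ifi27l2a with 12.78 in classical monocytes and 8.26 in cMoP, and Slfn1 with 10.69 in classical monocytes and 5.73 in cMoP.

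On the lower side stood granule genes, surface proteins of progenitors and drivers of growth. Nkg7, a granule membrane protein, had 7.16 in classical monocytes and 11.70 in cMoP (23.4-fold lower). Ms4a3, a tetraspan protein that marks granulocyte-monocyte progenitors, had 7.41 in classical monocytes and 11.94 in cMoP (23.1-fold lower). Prss57, a serine protease of primary granules, had 6.04 in classical monocytes and 9.94 in cMoP (at least 12.7-fold lower). The granule genes Cd63, a tetraspanin, and Cst7, the protease inhibitor cystatin F, differed by -3.56 and -3.28. Hdc, the enzyme that makes histamine, differed by -3.25 and stands in the list of basophil, mast cell and eosinophil genes.

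Cd34, the sialomucin that marks early progenitors, had 7.24 in classical monocytes and 10.82 in cMoP (11.9-fold lower). The tetraspanin Cd81 had 7.03 in classical monocytes and 10.07 in cMoP, and the adhesion receptor Adgrg3 had 7.08 in classical monocytes and 10.32 in cMoP. Igfbp4, which binds insulin-like growth factors, differed by -2.68. The remaining genes of the 15 were Kit and 4 genes of growth and division that are described below, Ccnd2, Cdk6, Myc and Srm.

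**Figure D2:**
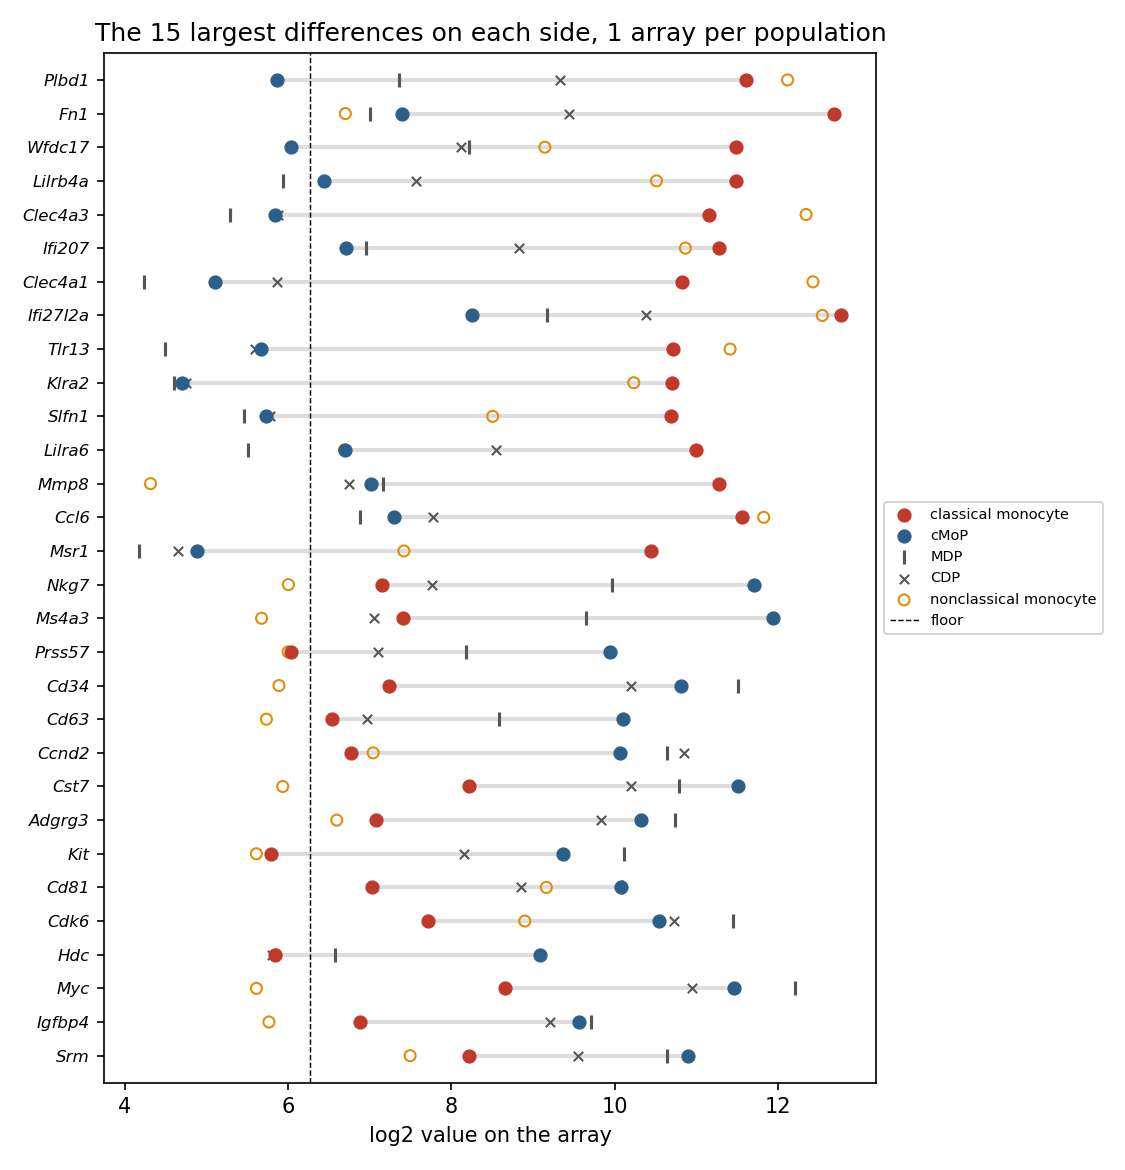
Log2 values of the 15 genes with the largest difference on each side (classical monocyte in red, cMoP in blue, the other 3 populations as small marks, 1 array each). The dashed line is the floor of 6.27. Fn1 and Mmp8 lie lower in nonclassical monocytes than in cMoP, at 6.70 and 4.32, while Clec4a1 and Tlr13 lie higher there than in classical monocytes, at 12.43 and 11.42.

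Interferon-stimulated genes had, at this floor, the largest median difference among lists of 10 or more members. Of its 46 members, 34 were higher in classical monocytes and 0 lower, which is 73.9% where 7.01% of all genes were higher. The median difference was 1.78, where all genes had -0.01, and 43 of the 46 lay above 0. The 8 with the largest differences, ranked with values under the floor set to it, were Ifi27l2a (4.52), Slfn1 (4.96), Samd9l (5.50), Slfn5 (4.73), Ifitm6 (3.65), Zbp1 (3.27), Rtp4 (4.24) and Ifit3 (4.13). Irf7, the transcription factor that amplifies the response, had 9.21 in classical monocytes and 5.65 in cMoP (at least 7.66-fold higher). Ifit3, which binds foreign RNA together with other IFIT proteins, had 9.23 in classical monocytes and 5.09 in cMoP (at least 7.77-fold), and Rtp4, an antiviral chaperone of receptors, had 9.24 in classical monocytes and 4.99 in cMoP (at least 7.82-fold). Most of these genes were dim in cMoP, as 5 of those 8 lay under the floor there and the list's median value was 9.04 in classical monocytes and 6.96 in cMoP. For comparison, Rtp4 had 7.07 and Samd9l 5.93 in MDP. Among the members within the threshold were Gbp3 (-0.69) and Gbp7 (-0.62), guanylate-binding proteins that respond to interferon gamma, and the receptor subunits Ifnar2 (0.47) and Ifngr1 (0.27).

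The promoters of this list were searched for the letters GAAA followed after any 2 bases by GAAA, the repeat known to bind interferon-activated factors, on both strands of the 250 bases before the start of each transcript (RefSeq, GRCm38.p6). The letters were found in 14 of the 37 members with a promoter in the table (37.8%), in 9.25% of the 584 higher genes, in 1.64% of the 365 lower genes, in 3.27% of the 8349 promoters of genes compared here and in 3.46% of all 27025 promoters. Within the list they were in 10 of 25 higher genes and in 4 of 12 within the threshold. The promoters of the 3 members with the largest differences among those that hold the letters are shown so that the repeat can be seen, 5′ to 3′ on the strand of the gene, with the match in capitals in either orientation.
Slfn5 (chr11:82951852-82952101, plus strand): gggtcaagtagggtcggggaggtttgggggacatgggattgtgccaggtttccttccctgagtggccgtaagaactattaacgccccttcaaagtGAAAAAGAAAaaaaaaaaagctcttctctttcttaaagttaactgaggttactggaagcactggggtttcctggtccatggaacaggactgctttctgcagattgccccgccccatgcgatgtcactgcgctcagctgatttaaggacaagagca
Ifit3 (chr19:34583279-34583528, plus strand): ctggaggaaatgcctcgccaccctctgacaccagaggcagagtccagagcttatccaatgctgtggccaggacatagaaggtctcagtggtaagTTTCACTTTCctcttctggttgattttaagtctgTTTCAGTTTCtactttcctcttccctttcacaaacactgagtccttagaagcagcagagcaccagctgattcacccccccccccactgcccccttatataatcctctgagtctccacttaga
Slfn8 (chr11:83020811-83021060, minus strand): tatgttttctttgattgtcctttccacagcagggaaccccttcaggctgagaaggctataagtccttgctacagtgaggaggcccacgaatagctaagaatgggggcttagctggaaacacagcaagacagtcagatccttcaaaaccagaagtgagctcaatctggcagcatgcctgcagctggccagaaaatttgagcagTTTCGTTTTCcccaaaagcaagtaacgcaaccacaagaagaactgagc
Slfn5 and Slfn8 belong to the Schlafen family of growth-regulating proteins, and their differences were 4.73 and 2.96. The Slfn5 match runs into a stretch of adenines. Ifit3 holds 2 matches, whose first bases lie 156 and 122 bases before the start, and the Slfn8 match begins 48 bases before it. A match describes these letters and is not a measured binding site.

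Genes by which classical monocytes are known were mostly higher on their array. Of the 26 members of this list, 19 were higher and 0 lower (73.1% against 7.01% of all genes), with a median of 1.48. Beside Fn1 and Chil3, the 8 largest included Vcan (4.59), Ifitm6 (3.65), S100a9 (3.66), Cd177 (2.99), Tgfbi (2.74) and Emilin2 (2.72). Vcan, the gene of the matrix proteoglycan versican, had 9.40 in classical monocytes and 4.80 in cMoP (at least 8.73-fold higher). Chil3, a chitinase-like secreted protein, had 12.80 in classical monocytes and 8.90 in cMoP (15-fold), while MDP had 5.26 and CDP 5.61. S100a8 and S100a9 encode the subunits of calprotectin, and they had 12.64 and 12.07 in classical monocytes, against 11.23 and 8.41 in cMoP. Ccr2, the chemokine receptor for exit from the marrow, had 11.92 in classical monocytes and 10.37 in cMoP (2.93-fold). The list's median value was 11.99 in classical monocytes and 10.25 in cMoP, well above the floor on both arrays.

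Genes of nonclassical monocytes were in part higher too, with 6 of 16 members higher and 0 lower and a median of 0.77, which was 0.44 with no floor and 1.28 with the floor at the upper quartile. The 6 were Adgre4 (2.78), Gngt2 (2.35), Ceacam1 (2.09), the fractalkine receptor Cx3cr1 (1.97), the nuclear receptor Nr4a1 (1.82) and the kinase Stk10 (1.56). Of the 16 members, 12 lay above 0 and 4 below, and 7 of the 23 measured genes lay under the floor on both arrays. Cx3cr1 had 10.54 in classical monocytes and 8.57 in cMoP, and 12.29 in nonclassical monocytes. Nr4a1, on which nonclassical monocytes depend, had 7.87 in classical monocytes and 6.05 in cMoP, and 11.81 in nonclassical monocytes.

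Primary granule genes, which progenitors of granulocytes and monocytes transcribe, were mostly lower in classical monocytes. Of 27 members, 17 were lower (63% against 4.4% of all genes) and 3 higher, with a median of -1.51. Mpo, the gene of myeloperoxidase, had 11.16 in classical monocytes and 13.58 in cMoP (5.35-fold lower). Elane, Ctsg and Prtn3, the serine proteases neutrophil elastase, cathepsin G and proteinase 3, had 10.19, 10.69 and 10.91 in classical monocytes, against 12.55, 13.03 and 13.04 in cMoP. Elane, Ctsg and Prtn3 were singled out after their values were seen. With Mpo, these 4 transcripts stayed far above the floor in classical monocytes, and in nonclassical monocytes they were at 7.04, 6.12, 5.39 and 6.33. The 3 higher members were lysozyme Lyz2 (1.54), the dipeptidyl peptidase Ctsc (1.44), which activates granule proteases, and ficolin B, Fcnb (1.10). Igfbp4, which stands in this list and is known as a secreted binding protein, was among its 8 lowest members.

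Stem and early progenitor genes had 11 of 26 members lower (42.3%) and 1 higher, with a median of -0.71. With the floor at the upper quartile 6 were lower and the median was -2.27. After Kit, Cd34 and Cdk6, the largest were Myb (-2.57), Adgrl4 (-2.33), Erg (-2.21), Cd27 (-1.68) and Adgrg1 (-2.16). Myb, a transcription factor that keeps progenitors cycling, had 8.54 in classical monocytes and 11.11 in cMoP, and 5.68 in nonclassical monocytes. Some stem cell factors were dim in both populations, such as Meis1 with 6.25 in classical monocytes and 6.43 in cMoP and Hoxa9 with 6.36 in classical monocytes and 6.97 in cMoP. The member that was higher was Spink2 (1.10), which lay at 6.85 in classical monocytes, close to the floor.

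Ribosome biogenesis genes were in large part lower in classical monocytes. They had 30 of 59 members lower (50.8% against 4.4% of all genes) and 0 higher, with a median of -1.01, and all 59 lay below 0. The 8 largest were Gnl3 (-2.47), Wdr12 (-2.23), Rcl1 (-1.85), Dkc1 (-1.82), Nop58 (-1.82), Nolc1 (-1.75), Wdr75 (-1.64) and Lyar (-1.56). Gnl3, the nucleolar GTPase nucleostemin, had 7.69 in classical monocytes and 10.16 in cMoP (5.54-fold lower). Dkc1, the pseudouridine synthase dyskerin, had 7.78 in classical monocytes and 9.60 in cMoP, and Nop58, a core protein of box C/D small nucleolar particles, had 8.48 in classical monocytes and 10.30 in cMoP. The abundant nucleolar proteins Npm1 (-0.92), Fbl (-0.96) and Ncl (-0.78) were within the threshold.

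One-carbon and nucleotide synthesis genes had 15 of 28 members lower (53.6%) and 0 higher, with a median of -1.02. Srm, the spermidine synthase, had 8.22 in classical monocytes and 10.90 in cMoP (6.39-fold lower). Phgdh, the first enzyme of serine synthesis, had 6.53 in classical monocytes and 8.55 in cMoP, and Shmt2, the mitochondrial serine hydroxymethyltransferase, had 8.73 in classical monocytes and 10.39 in cMoP. Ppat (-1.79), the entry enzyme of purine synthesis, Cad (-1.66) and Umps (-1.53), enzymes of pyrimidine synthesis, Shmt1 (-1.59) and Odc1 (-1.44), the ornithine decarboxylase, were also among the 8 largest. Myc had 8.66 in classical monocytes and 11.46 in cMoP (6.95-fold lower), with 12.21 in MDP and 5.61 in nonclassical monocytes. The letters CACGTG, which MYC with MAX is known to bind, were in 3 of the 54 ribosome biogenesis promoters in the 250-base window (5.56%). They were in 3 of the 25 promoters of one-carbon and nucleotide synthesis genes (12%) and in 10.7% of the 365 lower genes. The shares were 10.2% in promoters of the genes compared here and 6.86% in all promoters.

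Other parts of protein and energy metabolism lay below 0 with smaller shares past the threshold. Chaperones had 10 of 37 lower and a median of -0.66, among them Hspa9 (-1.51), a mitochondrial chaperone, Fkbp4 (-1.47) and Calr (-1.42), and all 37 lay below 0. Citric acid cycle and mitochondrial import genes had 7 of 35 lower (median -0.63), led by Hspa9 and C1qbp (-1.49). Mitochondrial ribosomal proteins had 4 of 71 lower (median -0.54), with 69 below 0. Aminoacyl-tRNA synthetases had 1 of 18 lower, Eprs (-1.24), with a median of -0.65. Translation factors had 2 of 38 lower (median -0.38) and respiratory chain genes 3 of 61 (median -0.31). For these last 4 lists the share past the threshold was near the 4.4% of all genes. Cytosolic ribosomal proteins lay closer to 0, with 1 of 41 lower, Rpl12 (-1.85), and a median of -0.13.

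Glycolysis and pentose phosphate genes lay mostly below 0, with 19 of 26 below and 6 above, and a median of -0.36. Past the threshold, 4 were lower (15.4%) and 2 higher (7.69%, near the 7.01% of all genes). The lactate transporter Slc16a1 (-1.70) and the kinase Pdk1 (-1.56) were lower, and the lactate exporter Slc16a3 (1.30) and Pfkfb4 (1.07) higher. Cholesterol and fatty acid synthesis genes had 1 of 23 lower, the desaturase Scd2 (-1.23), 0 higher and a median of 0.00.

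Mitosis genes lay within the threshold throughout. Of 86 members, 0 were higher and 0 lower, the differences ran from -0.72 to 0.72, and the median was 0.03, and -0.03 after quantile normalization. Of the 86, 46 lay above 0 and 28 below, and the rest held the same value on both arrays. Without such ties the median was 0.08. The list's median value was 9.23 on both arrays. Mki67, the proliferation antigen Ki-67, had 11.26 in classical monocytes and 10.64 in cMoP, and 6.93 in nonclassical monocytes. Top2a, the topoisomerase of dividing cells, had 11.28 in classical monocytes and 11.12 in cMoP, and 6.16 in nonclassical monocytes. Cdk1, the kinase of mitotic entry, had 10.01 in classical monocytes and 10.26 in cMoP, and Plk1, a kinase of the spindle, had 9.70 in classical monocytes and 9.60 in cMoP. Both lay under the floor in nonclassical monocytes, at 5.72 and 5.28. Histone genes likewise had 0 higher and 0 lower of 24 members (median -0.01, and 0.01 with no floor). On the same classical monocyte array Kit lay under the floor, at 5.79, while Cd34 and Cdk6 lay above it, at 7.24 and 7.71. The part of progenitors in the mitosis values was not tested.

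DNA replication genes had a median between those of the mitosis and ribosome biogenesis lists. All 51 were below 0, with a median of -0.60, but 3 were lower by 2-fold or more (5.88% against 4.4% of all genes) and 0 higher. The 3 were Pold2 (-1.40), a subunit of DNA polymerase delta, Hells (-1.16), a chromatin remodeller, and Orc1 (-1.07), a subunit of the origin recognition complex. The helicase subunits Mcm4 (-0.87) and Mcm6 (-0.88) and the sliding clamp Pcna (-0.11) were within the threshold. DNA repair genes had 1 of 39 higher (2.56%), Dna2 (1.32), and 2 lower (5.13%), Hmgn5 (-1.26) and Exo1 (-1.11), with a median of -0.32. The lower share was near the 4.4% of all genes, and the higher share lay under their 7.01%.

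The promoters of mitosis genes carry a known pair of elements, the CHR with the letters TTTGAA and the CCAAT box, both searched on both strands of the 250 bases before the start. TTTGAA was found in 27 of the 69 members with a promoter (39.1%), in 12.6% of promoters of the genes compared here and in 18.3% of all. CCAAT was in 49 of 69 (71%), in 40.2% of the genes compared and in 37.5% of all. TTTGAA was in 15.9% of the higher and 11.5% of the lower genes. It was also in 29.7% of interferon-stimulated and 21.7% of primary granule promoters, and in 8% to 14.6% of the other lists searched. CCAAT was in 65.9% of DNA replication promoters and in 37% to 48.6% of the other lists. The pair of letters is thus not particular to mitosis genes here. The E2F letters GCGGGAA were in 11 of 41 DNA replication promoters (26.8%), in 8.38% of promoters of the genes compared and in 4.38% of all. The promoters of Smc2, a condensin subunit, and Ncapg, another condensin subunit, are shown because they hold both elements and their values were equal on the 2 arrays, at 9.90 and 9.08. These 2 genes were picked for the smallest difference. Of all genes compared, 7.54% held equal values on both arrays, and the origin of such ties was not tested. Capitals mark both elements in either orientation.
Smc2 (chr4:52438971-52439220, plus strand): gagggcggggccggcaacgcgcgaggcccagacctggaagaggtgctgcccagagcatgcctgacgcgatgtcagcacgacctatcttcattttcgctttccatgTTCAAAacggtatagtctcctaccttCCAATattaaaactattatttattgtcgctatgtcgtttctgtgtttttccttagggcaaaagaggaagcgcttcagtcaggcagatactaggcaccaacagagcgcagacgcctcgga
Ncapg (chr5:45669675-45669924, plus strand): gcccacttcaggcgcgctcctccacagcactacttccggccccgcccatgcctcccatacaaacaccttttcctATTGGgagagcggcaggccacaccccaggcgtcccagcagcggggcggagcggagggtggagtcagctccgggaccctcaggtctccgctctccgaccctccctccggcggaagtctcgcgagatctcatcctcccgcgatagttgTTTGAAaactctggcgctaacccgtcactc
In Ncapg the CHR lies 30 bases before the start, and in Smc2 it begins 145 bases before it. The letters alone do not show that either promoter is bound in these cells.

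Regulators of the cell cycle differed in both directions between the 2 arrays. The list had 9 of 43 members higher (20.9%) and 5 lower (11.6%), with a median of 0.13. Ccnd2, cyclin D2, had 6.77 in classical monocytes and 10.07 in cMoP (9.82-fold lower). Its kinase Cdk6 had 7.71 in classical monocytes and 10.55 in cMoP (7.14-fold lower). Cyclin D1, Ccnd1, had 6.92 in classical monocytes and 8.62 in cMoP, and Cdk4 had 10.37 in classical monocytes and 11.62 in cMoP. Cyclin D3 ran the other way, as Ccnd3 had 9.96 in classical monocytes and 8.92 in cMoP (2.07-fold higher). The classical monocyte array thus had the lowest Ccnd2 and Cdk6 values and the highest Ccnd3 value of the 5 arrays.

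Inhibitors of the cycle were in part higher. Cdkn1b, the gene of p27, had 10.68 in classical monocytes and 9.65 in cMoP (2.04-fold), and Cdkn2d, the gene of p19 of the INK4 family, had 9.22 in classical monocytes and 7.74 in cMoP (2.79-fold). Cdkn2c was within the threshold (0.82). The antiproliferative genes Btg2 (2.40) and Btg1 (1.21), the retinoblastoma gene Rb1 (1.31), Ccng2 (1.12) and Gas7 (2.01) were higher as well. E2f2 (1.60), a transcription factor of the E2F family, was also higher and is not counted here as an inhibitor. Ccnd3 lay at 0.99 after quantile normalization, just under the threshold.

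Myeloid transcription factors had 27 of 94 members higher (28.7% against 7.01%) and 4 lower, with a median of 0.37, which was 0.60 with the floor at the upper quartile. The 8 largest were Id2 (4.10), Irf7 (3.55), Bcl6 (2.60), Irf5 (2.44), Klf3 (2.43), Zfp36 (2.34), Rara (2.25) and Mef2a (1.92). Id2, an inhibitor of E proteins, had 9.70 in classical monocytes and 5.61 in cMoP (at least 10.8-fold), and was higher in classical monocytes than on any other array. Bcl6, a transcriptional repressor, had 9.16 in classical monocytes and 6.55 in cMoP (6.08-fold), and 11.24 in nonclassical monocytes. Irf5, which acts downstream of Toll-like receptors, had 10.40 in classical monocytes and 7.95 in cMoP (5.45-fold). Mef2a had 10.19 in classical monocytes and 8.28 in cMoP. The 4 lower members were Myc, Myb, Erg and Sox4, at differences of -2.80, -2.57, -2.21 and -2.00.

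Of the lineage factors named here, all but Klf4 were within the threshold. Most genes compared were within it too, as 11.4% were past it. Spi1, the gene of PU.1, had 11.10 in classical monocytes and 10.68 in cMoP, and Irf8, which directs progenitors toward monocytes and dendritic cells, had 10.32 in classical monocytes and 10.45 in cMoP. Cebpa had 8.36 in classical monocytes and 8.69 in cMoP, Cebpb 8.53 in classical monocytes and 8.09 in cMoP, and Cebpe 7.04 in classical monocytes and 7.24 in cMoP. Zeb2 had 10.66 in classical monocytes and 9.85 in cMoP, and Gfi1, a repressor of the granulocyte line, was near the floor with 6.01 in classical monocytes and 6.41 in cMoP. Klf4, which monocytes need, was just past the threshold with 9.47 in classical monocytes and 8.46 in cMoP, and its difference was 0.93 after quantile normalization.

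**Figure D3:**
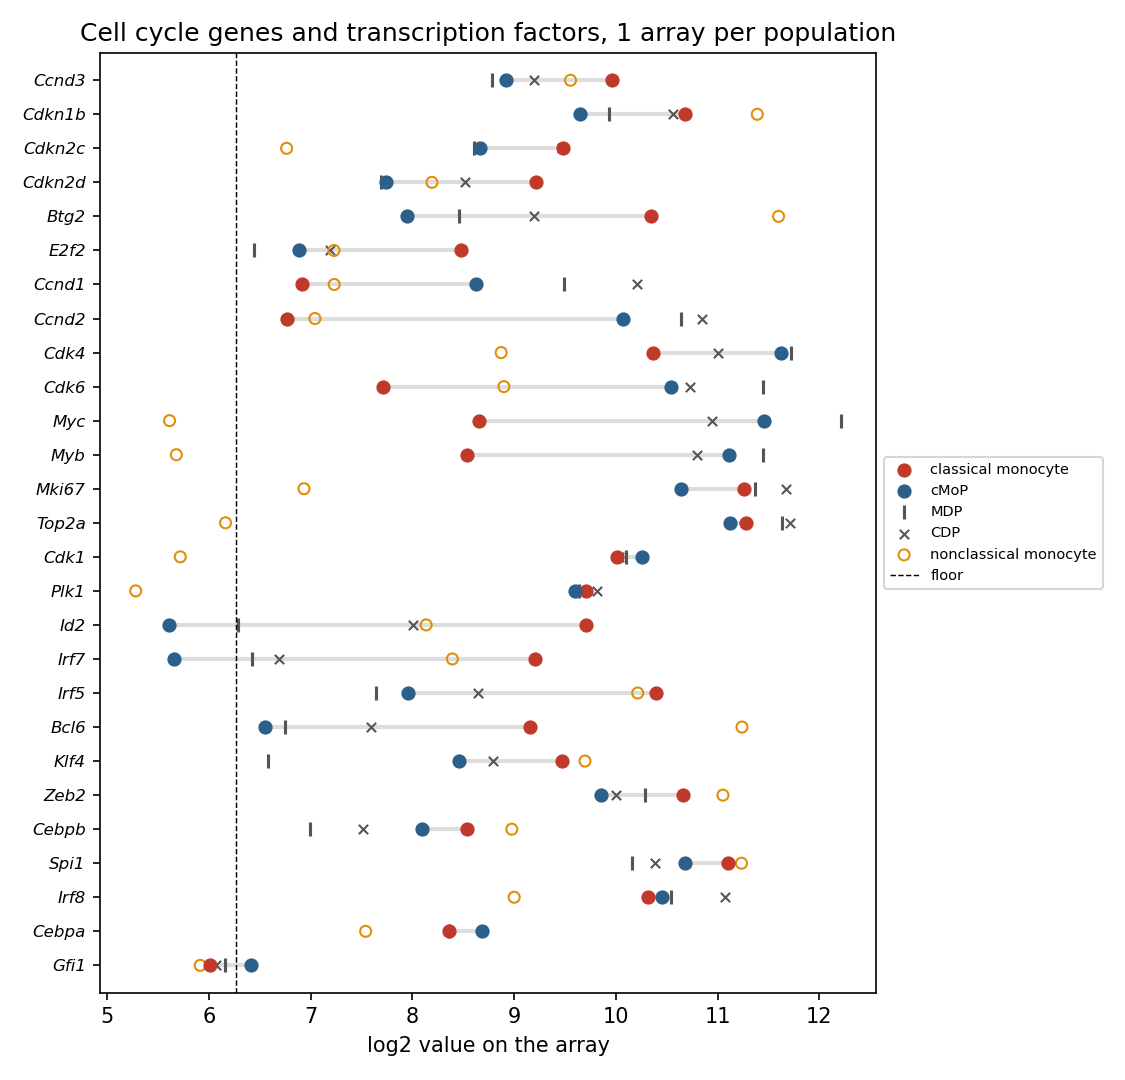
Log2 values of cell cycle genes and transcription factors (classical monocyte in red, cMoP in blue, the other 3 populations as small marks, 1 array each), with the floor as a dashed line. Ccnd2, Cdk6, Myc and Myb lie lower in classical monocytes, while Mki67, Top2a, Cdk1 and Plk1 lie within 1 log2 unit of cMoP and far lower in nonclassical monocytes.

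Receptors that sense microbes were in part higher in classical monocytes. Toll-like receptors and adaptors had 11 of 25 members higher (44%) and 1 lower (median 0.74). The receptors of nucleic acids in endosomes had the largest differences, as Tlr7, which binds single-stranded RNA, had 8.62 in classical monocytes and 4.36 in cMoP (at least 5.1-fold), Tlr8 had 8.35 in classical monocytes and 5.22 in cMoP (at least 4.23-fold), and Tlr9, which binds unmethylated DNA, had 9.12 in classical monocytes and 7.25 in cMoP (3.66-fold). Of the receptors of bacterial surface molecules, Tlr2 (1.76) and the cofactor Ly96 (1.76) were higher, and Tlr4 (0.74) and Cd14 (0.88) were within the threshold. Cd180, a relative of TLR4, had 11.42 in classical monocytes and 9.83 in cMoP. Lbp, the gene of lipopolysaccharide-binding protein, was the lower member (-1.36).

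C-type lectins had 12 of 16 members higher (75%) and 0 lower (median 1.29). After Klra2, Clec4a1 and Clec4a3 came Clec2i (3.04), Cd302 (2.69), Clec4b1 (1.93), Clec4a2 (1.60) and the beta-glucan receptor Clec7a (1.42), known as dectin-1. Clec12a (-0.16) and Clec5a (-0.01) were within the threshold. Sensors of cytosolic nucleic acid and inflammasome genes had 11 of 23 higher and 0 lower (median 0.70), among them the DNA sensor Zbp1 (3.27), the RNA sensors Ddx58 (2.77) and Ifih1 (1.41), the flagellin receptors Naip5 (1.64) and Naip6 (1.58), and Nlrp3 (1.57). Of these 11, 4 stand in the interferon list too, namely Zbp1, Ddx58, Ifih1 and Dhx58.

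Paired and activating receptors had 17 of 27 members higher (63%) and 1 lower (median 1.45). Beside the LILR genes above they included Pirb (3.51), Pilrb1 (2.58) and Pilrb2 (2.58), Mcemp1 (2.36) and Pilra (2.33). The lower one was Trem3 (-1.30), an activating receptor of myeloid cells. In the Fc receptor list 6 of 16 were higher (37.5%) and 0 lower (median 0.71). Fgr, a Src family kinase, had 10.41 in classical monocytes and 5.57 in cMoP (at least 17.7-fold), and Fcgr1, the high-affinity receptor for immunoglobulin G, had 8.26 in classical monocytes and 5.86 in cMoP (at least 3.97-fold). Fcgr3 was high on both arrays, with 10.97 in classical monocytes and 10.83 in cMoP.

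Genes of migration were in part higher in classical monocytes. Chemokine and lipid mediator receptors had 9 of 22 higher and 2 lower (median 0.64). The median was 0.34 with no floor and 1.30 with the floor at the upper quartile. Ccr1, a receptor for inflammatory chemokines, had 7.99 in classical monocytes and 4.10 in cMoP (at least 3.31-fold), P2ry6, a receptor for uridine diphosphate, had 9.30 in classical monocytes and 5.57 in cMoP (at least 8.17-fold), and C5ar1, the receptor for complement C5a, had 7.65 in classical monocytes and 5.50 in cMoP (at least 2.61-fold). S1pr3 (-2.11) and the neutrophil chemokine receptor Cxcr2 (-1.37) were lower. The retention receptor Cxcr4 was at 11.57 in classical monocytes and 11.36 in cMoP.

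Integrins and adhesion genes had 8 of 28 higher (28.6% against 7.01% of all genes) and 2 lower (7.14% against 4.4%), with a median of 0.50. Itgam and Itgb2, the CD11b and CD18 chains of the integrin Mac-1, had 11.06 and 11.22 in classical monocytes, against 7.46 and 8.34 in cMoP. Itgb7 (2.55), Itga4 (1.32) and the adhesion receptors Adgre4 (2.78), Adgre5 (2.61) and Adgre1 (2.29) were higher too. Pecam1 (-1.83) and Cd81 (-3.05) were lower. Actin and motility genes had 15 of 50 higher (30%) and 1 lower (median 0.63), led by the calcium-binding S100a6 (2.96), Lsp1 (2.92), Marcks (3.04), which tethers actin to the membrane, S100a4 (2.64) and the capping protein Capg (2.01). Anxa3 (-1.26) was the lower member, and Actb was within the threshold (0.33).

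Lysosome genes had 11 of 53 higher (20.8%) and 2 lower (median 0.57), and 45 lay above 0. Beside Plbd1 they included the proteases Ctss (2.45), Lgmn (1.85), Ctse (1.73), Ctsc (1.44) and Ctsh (1.35), the membrane protein Cd68 (2.33) and the saposin precursor Psap (1.64). The lower ones were Cd63 (-3.56) and Gaa (-1.03), the acid glucosidase. Within the threshold lay the master regulators Tfeb (0.89) and Tfe3 (0.95) and the membrane proteins Lamp1 (0.66) and Lamp2 (0.61). The letters CACGTG, the core of the element that TFEB binds, were in 12 of 44 lysosome promoters (27.3%), in 10.2% of promoters of the genes compared here and in 6.86% of all. The longer element around this core was in 1 of the 44 lysosome promoters (2.27%). It was in 0.635% of promoters of the genes compared and in 0.27% of all. The core letters are also those searched above for MYC, and which factor binds them was not tested.

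Class II presentation genes had 7 of 18 higher (38.9%) and 0 lower (median 0.64). With the floor at the upper quartile 2 were higher, and with values under the floor set to it the median was 0.25. The 7 higher genes were the thiol reductase Ifi30 (2.68), the invariant chain Cd74 (2.66), the costimulatory Cd86 (2.64) and Cd40 (1.08), Ctss, Lgmn and Marchf1 (1.19). The class II chains themselves were within the threshold, with H2-Ab1 at 6.56 in classical monocytes and 6.64 in cMoP and H2-Aa at 6.30 in classical monocytes and 5.92 in cMoP. Class I presentation genes had 0 of 17 higher and 1 lower, Calr, with a median of -0.07.

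Lipid genes had 8 of 20 higher and 1 lower (median 0.75). Hpgd, which inactivates prostaglandins, had 10.09 in classical monocytes and 5.37 in cMoP (at least 14.1-fold), Pla2g7, which degrades platelet-activating factor, had 8.42 in classical monocytes and 4.81 in cMoP (at least 4.45-fold), and Apoe, a lipid carrier, had 11.50 in classical monocytes and 8.26 in cMoP (9.42-fold). Lta4h, the hydrolase that makes leukotriene B4, was lower (-1.74), while Alox5 (1.80) and Alox5ap (1.06) of the same pathway were higher. Complement and coagulation genes had 9 of 17 higher and 2 lower (median 1.40, and 0.26 with no floor, since 12 of 29 measured genes lay under it on both arrays), with coagulation factors F5 (2.64) and F10 (1.40), the urokinase receptor Plaur (1.97) and thrombospondin, Thbs1 (2.55), higher and Tfpi (-1.67) and Cd93 (-1.37) lower. Of NADPH oxidase and antioxidant genes 4 of 29 were higher (13.8% against 7.01% of all genes) and 2 lower (6.9% against 4.4%), with a median of 0.07. The oxidase's membrane subunit Cybb had 12.46 in classical monocytes and 10.46 in cMoP, and its partner Cyba (1.32) and the heme oxygenase Hmox1 (2.97) were higher, and Hvcn1, the proton channel, was lower (-1.10).

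Among cytokine and growth factor genes 12 of 39 were higher (30.8%) and 1, Kit, lower (2.56%), with a median of 0.62. After Ccl6 came Ccl3 (2.49), Cxcl10 (2.75), Il10ra (2.02), Il13ra1 (3.31) and Tnfrsf1b (1.69). Survival genes had 5 of 26 higher and 2 lower (median 0.21), and 3 higher with the floor at the upper quartile. Bcl2 had 7.23 in classical monocytes and 9.84 in cMoP (6.09-fold lower), and Mcl1, a related inhibitor of apoptosis, had 11.32 in classical monocytes and 9.92 in cMoP (2.64-fold higher). The death receptor Fas had 7.88 in classical monocytes and 5.48 in cMoP (at least 3.06-fold higher).

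**Figure D4:**
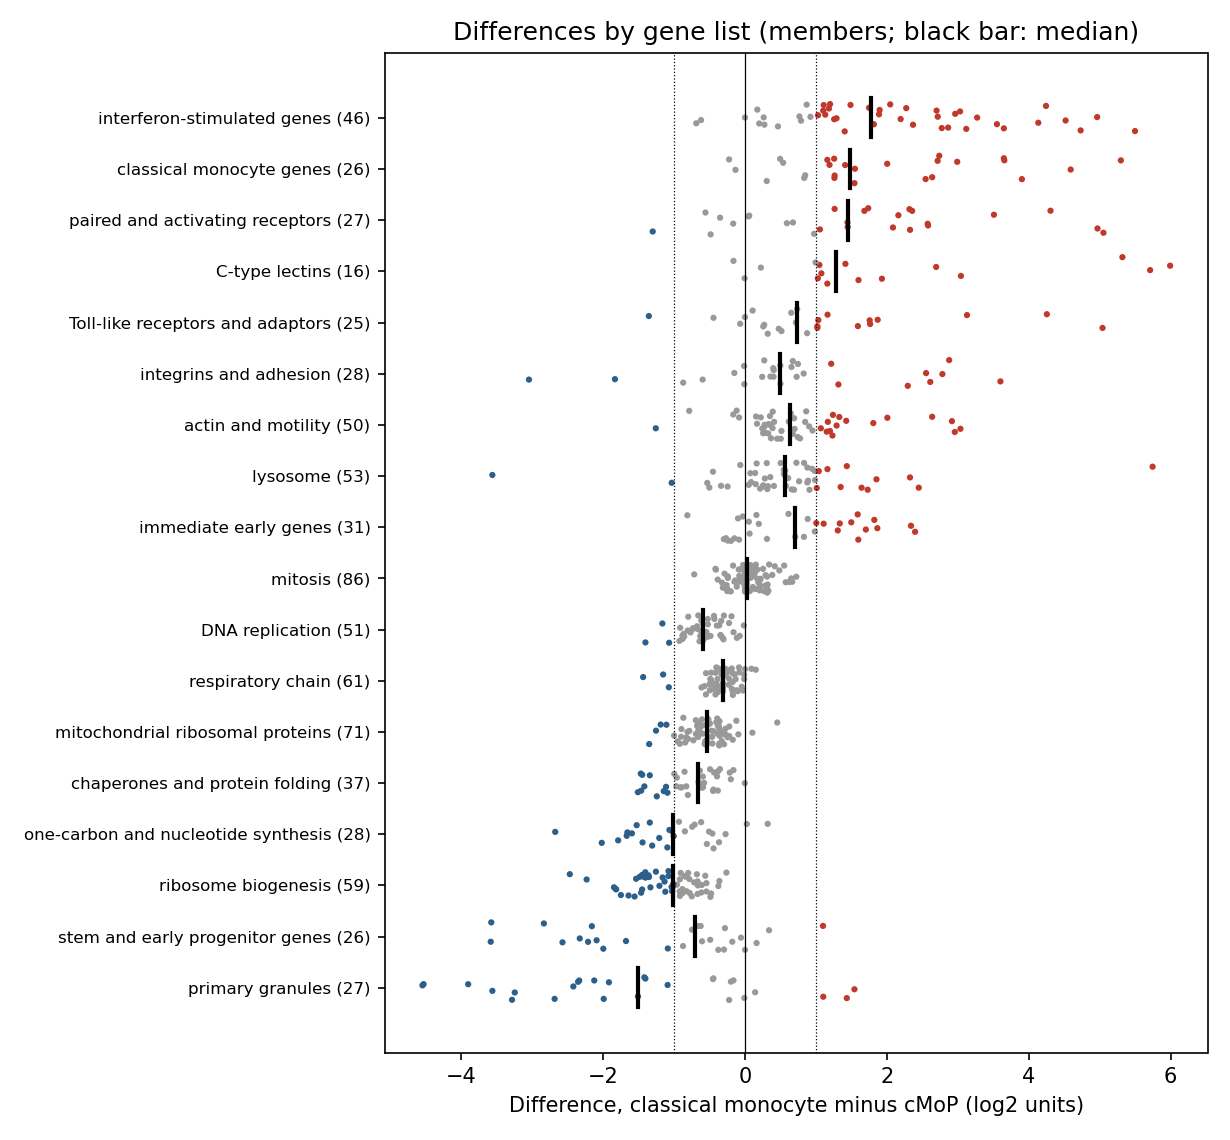
Differences between classical monocyte and cMoP (horizontal axis, log2 units) for the members of 18 gene lists, 1 point per gene, with the number of members in brackets and the list's median as a black bar. Red points are 1 log2 unit or more higher in classical monocytes and blue points 1 or more lower. Interferon-stimulated genes have a median of 1.78, mitosis genes of 0.03, ribosome biogenesis genes of -1.01 and primary granule genes of -1.51.

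Immediate early genes, which the handling of cells is also known to induce, were in part higher in classical monocytes. They had 12 of 31 higher and 0 lower (median 0.71, and 1.22 with the floor at the upper quartile), with Btg2 (2.40), Zfp36 (2.34), Fos (1.87), Dusp1 (1.70) and Nr4a1 (1.82) at the top. Zfp36, Klf4, Nr4a1 and Btg2, named above, stand in this list, and its part in their differences was not tested.

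Markers of other cells that a marrow sort could hold were read on both arrays. Neutrophil genes had 9 of 15 members higher and 1 lower (median 1.41, and 0.55 with no floor), and their summed value over 22 measured genes was 175 in classical monocytes and 154 in cMoP. Mmp8, S100a9, Cd177, Lcn2 (1.48), S100a8, Pglyrp1 (1.41), Padi4 (2.42) and Ltb4r1 (1.13) were the largest. Ltf, Mmp9, Retnlg, Ly6g and 3 other members of the list lay under the floor on both arrays, with Ltf at 4.63 in classical monocytes and 4.78 in cMoP and Ly6g at 4.75 in classical monocytes and 4.69 in cMoP. Camp was near the floor, with 6.89 in classical monocytes and 6.29 in cMoP. The part of neutrophils in Mmp8, Padi4 and the S100 genes was not tested beyond these values.

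Macrophage genes had 6 of 8 members higher and 0 lower (median 2.06, and 0.01 over all 25 with no floor), with a summed value over 25 genes of 162 in classical monocytes and 147 in cMoP. The higher ones were Apoe, Hmox1, Cd68, Adgre1, Selenop (1.83) and Siglec1 (1.06), of which monocytes also make several. The other 17 lay under the floor on both arrays, among them C1qa, Mertk, Vcam1 and Spic. Of erythroid, megakaryocyte, B cell, and T and NK cell genes, 11 of 16, 7 of 13, 14 of 18 and 19 of 23 lay under the floor on both arrays. The megakaryocyte list had 1 of 6 members higher (2.55) and the B cell list 1 of 4 lower (-1.09). In the T and NK cell list 1 of 4 was lower, Nkg7 (-4.55), described above as a granule membrane protein. The erythroid Car1 (1.69) and Car2 (1.27) were higher, and the transferrin receptor Tfrc (-2.37), which dividing cells use in general, was lower. Basophil, mast cell and eosinophil genes had 2 of 6 members lower and 1 higher (1.21), and 14 of 20 lay under the floor on both arrays. The lower ones were Hdc (-3.25), with 5.84 in classical monocytes and 9.09 in cMoP, and the basophil protease Mcpt8 (-1.99). Mcpt8 had 6.71 in classical monocytes and 8.70 in cMoP. The part of basophils in these values was not tested. Conventional dendritic cell genes had 8 of 17 higher and 1 lower, Gpr171 (-2.01), and plasmacytoid ones 4 of 10 higher and 1 lower, Atp1b1 (-2.19), with medians of 0.34 and 0.07. Of the conventional ones 4 were higher with the floor at the upper quartile and 5 with values under the floor set to it, and the median was 0.07 with no floor. The plasmacytoid median was 1.47 with the floor at the upper quartile. The higher plasmacytoid members were Tlr7, Irf7, Tlr9 and Smim5 (1.47).

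Genes with several probe sets gave a check within the arrays, though not a replicate. Of the 1175 genes past the threshold, 71 had further probe sets, and 78 of those further probe sets were at or above the floor. In 76 the difference had the same sign as that of the gene, in 56 it was also past the threshold, and in 0 was it past the threshold the other way.

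Among 68 microRNA genes that reached the floor, 2 were higher and 0 lower, where 7.01% of all genes were higher and 4.4% lower. Both counts lay below these shares, and the 2 genes are named after their values were seen. Mir15a had 7.75 in classical monocytes and 6.66 in cMoP, and Mir142, whose gene is active in blood cells, had 7.55 in classical monocytes and 6.52 in cMoP. The probe sets of these genes were not shown to read the mature forms, which are given here to identify them, with the seed (bases 2 to 8) in capitals (RefSeq, GRCm38.p6). The seeds of the 4 arms differ from each other.
mmu-miR-15a-5p: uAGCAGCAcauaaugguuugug
mmu-miR-15a-3p: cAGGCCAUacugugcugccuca
mmu-miR-142a-5p: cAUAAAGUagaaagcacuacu
mmu-miR-142a-3p: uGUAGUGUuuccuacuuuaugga
Both differences were close to the threshold, at 1.09 and 1.03.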

How the data were processed

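RNA of 5 sorted marrow populations was labelled with biotin and hybridised to expression arrays, 1 per population, per the labels' protocols. The authors deposited log2 values for 35556 probe sets per array. Base 2 was inferred from their range (1.59 to 14.24), with the background correction, normalization, centring and software steps not given in the sources used here. The median over all probe sets was 6.07 in classical monocytes and 6.02 in cMoP.

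Probe sets were named from the platform annotation, where 21789 carry 1 symbol, 1621 several and 12146 are not listed. Of the 21789, 21698 Entrez identifiers were found in RefSeq (GRCm38.p6), and 0 symbols changed. Where a gene had several probe sets (999 genes), that with the largest 5-array mean stood for it. Groups were taken from the sample titles. No test was possible with 1 array per group.

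The members and the 50 gene lists were chosen with earlier results of these data known. The share of a list past the threshold is therefore a description and not a test. Of 1871 list entries 1694 were measured, 42 of them matched through an older symbol. Named genes were the 15 with the largest difference on each side after values under the floor were set to it, up to 8 list members past the threshold on each side and up to 4 within it, all members of the short lists and a fixed set of regulators. Promoters and microRNAs came from RefSeq (GRCm38.p6), which held a promoter for 8349 of the 10305 genes. The counting was tested on simulated data. Python 3.11.15, pandas 2.3.3 and numpy 2.4.6 were used.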

Additional observations from a re-analysis of the deposited data

How the results depend on the processing

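The counts of 722 higher and 453 lower genes depend on the threshold, since 4-fold left 197 and 57 and 1.5-fold gave 1421 and 1265. Under the other 7 alternatives (floor at the upper quartile or none, values under the floor set to it, quantile normalization, centring, probe sets averaged per gene, and leaving out tied genes) they ranged from 570 to 746 and from 327 to 480. The higher share of calls was 61.5%, and 56.4% after quantile normalization, which moved the median of all members to -0.08. With the floor at the upper quartile, where fewer members remain, the median changed sign for sort genes (-1.35), erythroid genes (-2.37), megakaryocyte genes (2.55) and T and NK cell genes (-4.55). Medians near 0 also changed sign for T and NK cell genes (-0.15) and mitosis genes (-0.03) after quantile normalization and for histone genes (0.01) with no floor. Over all lists and alternatives 60 medians other than those of sort and erythroid genes at that floor moved by 0.1 or more and 288 by less. Differences of named extremes and regulators were followed only with values under the floor set to it, quantile normalization, centring and probe sets averaged. Of these gene-by-alternative differences, 181 kept their side of the threshold and most of their size, and 3 did not. The 181 include shifts of more than 1 log2 unit, as Klra2 went from 5.99 to 4.43 and Msr1 from 5.55 to 4.17 with values set to the floor. The 3 were Klf4 (0.93) and Ccnd3 (0.99) after quantile normalization and Gfi1 (-0.15) with values under the floor set to it, all with their sign kept. No paired analysis was possible because each population has 1 array. Signal near the floor limits the folds of dim genes.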

Other observations

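Small nucleolar RNA genes were read after their values were seen. These RNAs guide the modification of ribosomal RNA and mostly lie in introns of other genes, so their probe sets may also read the host transcript. Of 42 that reached the floor, 16 were lower in classical monocytes and 0 higher, where 4.4% of all genes were lower, and their median difference was -0.83. The largest differences were those of Snord52 (-1.93), Snora69 (-1.80) and Snora73b (-1.75). The 3 that lay above 0 were Snora30 (0.46), Snord8 (0.23) and Snora31 (0.11).

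Probe sets without a single symbol were left out of the gene counts. Of 5181 unlisted ones at or above the floor, 691 were higher in classical monocytes (13.3%) and 119 lower (2.3%), with a median difference of 0.09. Of 817 with several symbols, 30 were higher (3.67%) and 18 lower (2.2%). Their targets were not analysed here.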
